A study of Mus musculus with 13 samples.

Results

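The loci of the 4 myogenic regulatory factors, Myod1, Myog, Myf5 and Myf6, were examined for binding of induced, HA-tagged Myf6 in mouse embryonic fibroblasts. The members are the peaks that fall in 3 windows around these genes on the build GRCm39. The Myod1 window is on chromosome 7 (45975000 to 46080000, 105 kb), the Myog window is on chromosome 1 (134167000 to 134271000, 104 kb), and Myf5 and Myf6, which are neighbours, share a window on chromosome 10 (107220000 to 107400000, 180 kb). These windows hold 41 of the 178951 peaks that the 13 deposited lists hold on chromosomes 1 to 19, X and Y, with 2 in the Myod1 window, 28 in the Myog window and 11 in the Myf5-Myf6 window.

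The myogenic regulatory factors are basic helix-loop-helix proteins that bind the E-box, CANNTG, as dimers with E proteins. Myod1 and Myf5 commit cells to the muscle lineage, Myog drives terminal differentiation, and Myf6 (also called MRF4) acts both in early commitment and in mature fibres. The factors can switch on their own genes and each other's, and the ability of Myod1 to turn fibroblasts into muscle cells is the classical example of conversion by a single factor. In fibroblasts these genes are normally silent, and H3K27me3, the histone mark laid down by Polycomb, is a common state of silent developmental genes.

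The 250 bases before the gene start are shown for Myog and Myf5, the members with an entry in the RefSeq promoter table, because the E-box is the motif that the induced protein recognises. Myod1 and Myf6 are named only. The table is on the build GRCm38.p6, not that of the peaks, so no peak was placed on these sequences. Capitals mark CANNTG, which reads the same on both strands. The Myog sequence is chr1:134289754-134290003, plus strand, and the Myf5 sequence is chr10:107486135-107486384, minus strand.
Myog: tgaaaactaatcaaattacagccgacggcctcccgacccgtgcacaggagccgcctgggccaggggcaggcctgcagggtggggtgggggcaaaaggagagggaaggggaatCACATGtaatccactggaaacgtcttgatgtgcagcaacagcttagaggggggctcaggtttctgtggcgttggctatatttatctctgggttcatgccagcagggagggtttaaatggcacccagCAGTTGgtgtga
Myf5: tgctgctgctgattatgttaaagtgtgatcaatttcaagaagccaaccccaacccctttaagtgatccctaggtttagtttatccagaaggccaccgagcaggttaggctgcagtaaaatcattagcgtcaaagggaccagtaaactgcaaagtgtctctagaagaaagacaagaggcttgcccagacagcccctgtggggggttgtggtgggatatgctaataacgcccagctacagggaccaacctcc
The Myog sequence held 2 matches, CACATG and CAGTTG, whose first bases lie 138 and 12 bases before the gene start. The Myf5 sequence held 0. At least 1 match was present in 66.2% of the 32851 promoters of this length, and 31.8% held at least 2. The forms CAGCTG and CACCTG (also searched as CAGGTG, its other strand) were in neither sequence, and were found in 13% and 17.2% of all promoters. These matches are a description of the letters and say nothing of binding.

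All cells were fibroblasts whose strain combines the alleles Pax7-CreERT2, Rosa26-LSL-tdTomato and CAG-rtTA3. They had been transduced with a lentivirus in which a TRE promoter, active when rtTA3 binds doxycycline, drives Myf6 with 3 HA tags, and all spent 24 h in iMPC medium. The groups were +Myf6+F/R/C (2 µg/mL doxycycline with Forskolin at 5 µM, RepSox at 5 µM and CHIR99021 at 3 µM), +Myf6 (2 µg/mL doxycycline) and no doxycycline. Forskolin raises cyclic AMP, RepSox blocks TGF-β signalling at its receptor kinase and CHIR99021 is an inhibitor of GSK3. CUT&RUN, in which an antibody guides a nuclease to the chromatin it then cuts free, was done with 2 HA and 2 IgG libraries per treatment, and with 1 H3K27me3 library from +Myf6+F/R/C cells as a positive control. Since rtTA3 and the provirus are present in every group, the group without doxycycline differs from +Myf6 by the inducer. From +Myf6+F/R/C it differs by the inducer and the compounds together. The labels do not say how many cells were transduced or whether replicates were separate cultures, so p-values measure the spread between these libraries, which may be technical. Peak lists hold no expression values, so the identity of the cells could not be checked against marker genes.

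Depth sets what a list can show. For HA, mean density was 61.9 and 40.9 fragments per 10 kb with +Myf6+F/R/C (replicates 1 and 2), 42.4 and 30.6 with +Myf6, and 30.6 and 23.7 without doxycycline. It was 54.3 in the H3K27me3 library and ran from 8.25 to 22.7 in the IgG libraries. At the mean background of its library, the smallest summit pileup that could be called was 4 to 6 fragments in the induced HA lists, 4 and 5 in the uninduced HA lists, 3 to 5 in the IgG lists and 5 in the H3K27me3 list. Where the local background is above the mean, a larger summit is needed. A gene region without a peak is therefore one where no summit passed the call rule at this depth, not one shown to be unbound.

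The Myog window was the one with most HA peaks after induction. It held 9 and 3 peaks in +Myf6+F/R/C cells (replicates 1 and 2) and 7 and 3 in +Myf6 cells, against 1 and 1 without doxycycline. The Myf5-Myf6 window held 2 and 3 HA peaks in +Myf6+F/R/C cells and 2 and 2 in +Myf6 cells, against 0 and 0 without doxycycline. The Myod1 window held 1 and 0 HA peaks in +Myf6+F/R/C cells, and 0 in both +Myf6 libraries and in both libraries without doxycycline. IgG peaks were found at a single place, in the Myog window, in 1 of the 6 IgG libraries (no doxycycline, replicate 2). Summed over the 8 control lists this made 3 peaks at Myog and 0 in the other windows. As few were found in 97.9% of genome tiles of the Myog length, 64.5% of the Myf5-Myf6 length and 76.1% of the Myod1 length.

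**Figure D1:**
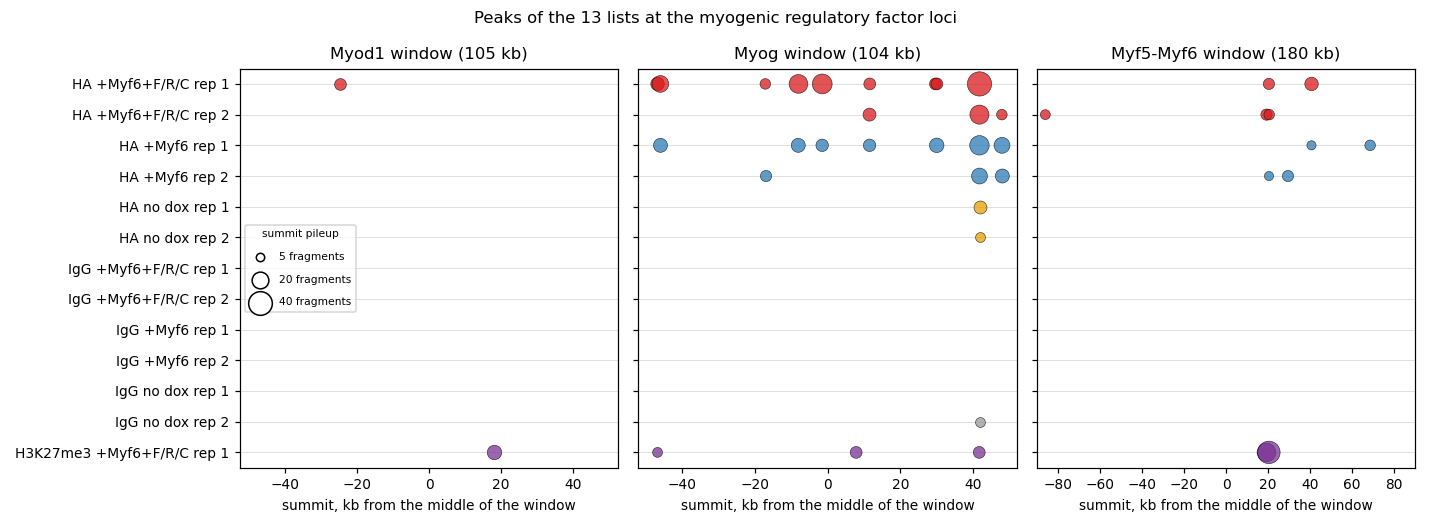
Peaks of the 13 lists in the 3 windows: the x axis is the distance of the summit from the middle of the window in kb, each row is a library, and the area of a circle follows the summit pileup in fragments. The Myog window holds 22 peaks of the 4 induced HA libraries, the Myf5-Myf6 window 9 and the Myod1 window 1, while the IgG rows hold a single peak.

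Within induced cells, HA peaks outnumbered IgG peaks at Myog and at Myf5-Myf6. In the Myog window the 4 HA libraries averaged 5.5 ± 3.0 peaks and the 4 IgG libraries 0 ± 0 (SD, n = 4 each; exact permutation p = 0.0286, two-sided, the smallest that 4 against 4 allows), and HA was above its IgG partner in 4 of 4 pairs. In the Myf5-Myf6 window they averaged 2.25 ± 0.5 and 0 ± 0 (SD, n = 4 each; exact permutation p = 0.0286), again with HA higher in 4 of 4 pairs. Each HA library shares its nuclei with the IgG library of its number, and with these pairs kept neither difference passed (exact sign flips, p = 0.125 for both, the smallest that 4 pairs allow). Leaving out any 1 of the 8 libraries gave p = 0.0571 in both windows (exact permutation), the smallest that 3 against 4 allows. In the Myod1 window the means were 0.25 ± 0.5 and 0 ± 0 (exact permutation p = 1.0, n = 4 each). Such a separation was common. All 4 HA lists exceeded all 4 IgG lists in 34.7% of the genome's tiles of the Myod1 length, where the window itself did not, in 34.5% of tiles of the length of the Myog window and in 46.8% of those of the Myf5-Myf6 length, so it is no result about these loci. The IgG libraries were also shallower. With every pileup scaled to the lowest IgG depth, the difference was 1.25 peaks at Myog (exact permutation p = 0.0286, n = 4 each) and 0 at Myf5-Myf6 (p = 1.0). Of the 22 Myog peaks, 5 met the call rule at that depth. Among these were the 4 peaks of a region that also has peaks in control lists. Outside that region only +Myf6+F/R/C replicate 1 kept a peak, so the scaled separation of all HA from all IgG libraries rests on that region.

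Against cells without doxycycline, +Myf6 cells had 5.0 ± 2.83 HA peaks in the Myog window, against 1.0 ± 0 (SD, n = 2 each; exact permutation p = 0.33). In the Myf5-Myf6 window they had 2.0 ± 0 and 0 ± 0 (SD, n = 2 each; exact permutation p = 0.33). With 2 libraries against 2, 0.33 is the smallest p possible, so neither difference could pass the threshold of 0.05. Both +Myf6 lists exceeded both uninduced lists in 37.9% of tiles of the Myog length and 49.7% of tiles of the Myf5-Myf6 length. For the Myod1 length, where neither group had a peak, the share was 37.9%. Scaled to the depth of the uninduced HA libraries, 16 of the 22 Myog peaks of both induced treatments met the call rule of replicate 1 and 16 that of replicate 2. These counts include the 4 peaks of a region where both uninduced lists do have a peak. Such scaling starts from peaks that were called and leaves out counting error, here and below, so the part of depth in any missing peak was not tested.

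The number of HA peaks was then set against all stretches of the genome of equal length. Summed over the 4 induced HA lists, 22 peaks or more were found in 2.67% of the 25543 tiles of 104 kb, whose median was 3. The replicate 1 lists gave 9 and 7 of the 22. Without +Myf6+F/R/C replicate 1 the sum was 13, which 6.17% of tiles reached. Without +Myf6 replicate 1 it was 15, reached by 4.93%, and without either replicate 2 it was 19, reached by 1.48% (+Myf6+F/R/C left out) and 1.41% (+Myf6 left out). The Myf5-Myf6 window, with 9, lay nearer the middle, since 41.4% of the 14752 tiles of 180 kb held as many or more and their median was 6. The Myod1 window, with 1, was matched or undercut by 42.5% of the 25297 tiles of 105 kb, whose median was 3. The tiles include stretches without genes.

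**Figure D2:**
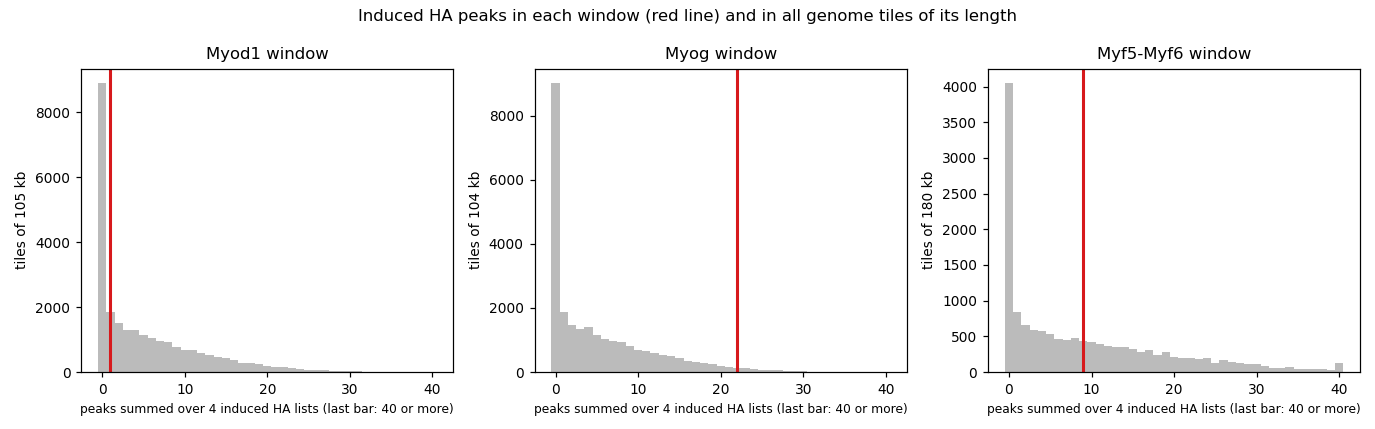
Histograms of genome tiles by the number of peaks summed over the 4 induced HA lists (x axis, last bar 40 or more; y axis, number of tiles), with a red line at the value of the window. The line stands at 1 for Myod1, at 22 for Myog, far in the upper tail, and at 9 for Myf5-Myf6.

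Regions were formed by merging HA and IgG peaks that share at least 1 bp, and a site of a treatment is a region with a peak in both of its HA lists and in none of the 8 control lists (HA without doxycycline and all IgG). By this definition Myog, the richest window, kept 1 +Myf6+F/R/C site and 1 +Myf6 site, at different regions. Myf5-Myf6 had 1 +Myf6+F/R/C site and 0 +Myf6 sites, and Myod1 had 0 of each. Over all 71864 regions, 21% were +Myf6+F/R/C sites and 17.5% were +Myf6 sites, against 2 and 1 of the 16 regions in the 3 windows. No region in the windows was a site of both treatments, which 10.7% of all regions were. A site of both treatments was in 22.2% of tiles of the Myog length, 32.4% of the Myf5-Myf6 length and 22.3% of the Myod1 length. At the level of windows, 35.2% of tiles of the Myog length held a +Myf6+F/R/C site and 31.2% a +Myf6 site. For the Myf5-Myf6 length these shares were 46.9% and 42.8%, and for the Myod1 length 35.4% and 31.4%.

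The strongest place in the Myog window was a region at 134260427 to 134261184, 41.8 kb above the middle of the window. It was the only region of the 3 windows with a peak in all 4 induced HA lists, which 14.8% of all regions had. Folds at the summit, the authors' ratio to the local background, were 9.78 and 7.40 in +Myf6+F/R/C cells (replicates 1 and 2) and 8.12 and 6.78 in +Myf6 cells, against 8.08 and 5.99 in HA libraries without doxycycline. The same place had a fold of 6.48 in the IgG library of replicate 2 without doxycycline. Folds of induced and uninduced libraries overlapped here. Because of its control peaks, which 10.7% of all regions had, the region is not a site. Control peaks were present at 27.5% of the 10625 regions with a peak in all 4 induced lists. Without it, HA libraries of induced cells averaged 4.5 more peaks than IgG libraries in this window (exact permutation p = 0.0286, n = 4 each). Leaving out regions with a control peak sets the IgG count to 0 by construction, so this p-value adds no support. The IgG lists of induced cells had 0 peaks in the window before this filter as well.

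Pileups and local density were higher in the induced libraries at this region, while folds overlapped. Summit pileups were 42 and 26 fragments in +Myf6+F/R/C cells and 27 and 18 in +Myf6 cells, against 12 and 7 in uninduced HA libraries and 7 in the IgG library. Divided by the mean pileup of the library, which takes out depth and fragment length, they were 41.3 and 36.9 in +Myf6+F/R/C cells and 39.5 and 36.6 in +Myf6 cells, against 25.8 and 27.4 without doxycycline and 33.3 in the IgG library. The 4 induced libraries lay close together and above the other 3, but the IgG value rests on 7 fragments and is near the lowest induced value. The IgG libraries without a peak there have no recovered value. The number of fragments in the 10 kb around the summit, relative to the library's mean, was 3.34 and 3.76 in +Myf6+F/R/C cells and 3.58 and 3.66 in +Myf6 cells. It was 1.31 in both uninduced HA libraries and 1.11 in the IgG library. The deposited fold divides by this local density, which stood higher in all 4 induced libraries than in all 3 others. These 10 kb include the fragments of the peak itself. A density of at least 3 times the mean was found at 14.8% to 20.3% of all peaks in the induced HA lists. In the uninduced HA lists it was found at 14.3% and 12.1% (replicates 1 and 2), and in that IgG list at 26.6%. No test is given, since the region was singled out by its peaks.

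A neighbouring region at 134266758 to 134267286, 48.0 kb above the middle, was the +Myf6 site of this window. Folds in +Myf6 cells were 5.70 and 6.05, with summit pileups of 18 and 14 fragments. In +Myf6+F/R/C cells only replicate 2 had a peak, with a fold of 3.13 and 8 fragments, at the weak end of its list (rank 31874 of 32033). Local density was 3.42 and 3.01 times the mean in +Myf6 cells and 2.66 times in the +Myf6+F/R/C library. The distance between the summits of this region and the strongest one is under 10 kb, so the stretches behind their local densities overlap.

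The +Myf6+F/R/C site of the Myog window was at 134230273 to 134230856, 11.6 kb above the middle. Folds there were 3.83 and 5.81 in +Myf6+F/R/C cells, with pileups of 10 and 12 fragments. In +Myf6 cells replicate 1 had a peak as well, with a fold of 5.36 and 11 fragments. Ranked by fold, the 2 +Myf6+F/R/C peaks stood 90.2% and 28.7% of the way down their lists, and the +Myf6 peak 44.5%.

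Closest to the middle of the Myog window were regions at 134217212 to 134217716, 1.5 kb below it, and at 134210812 to 134211263, 8.0 kb below it. At the nearer of these, folds were 7.83 in +Myf6+F/R/C replicate 1 and 4.97 in +Myf6 replicate 1, with pileups of 28 and 11 fragments, and neither replicate 2 had a peak. At the farther, folds were 8.96 in +Myf6+F/R/C replicate 1 and 7.16 in +Myf6 replicate 1, with pileups of 25 and 14 fragments, and again neither replicate 2 had one. Summits of the 2 lists differed by 23 and 59 bp. Another region of this kind, at 134172888 to 134173212 near the lower end of the window, had folds of 7.32 and 6.70 and pileups of 20 and 14 in the same libraries. None of these had a control peak.

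**Figure D3:**
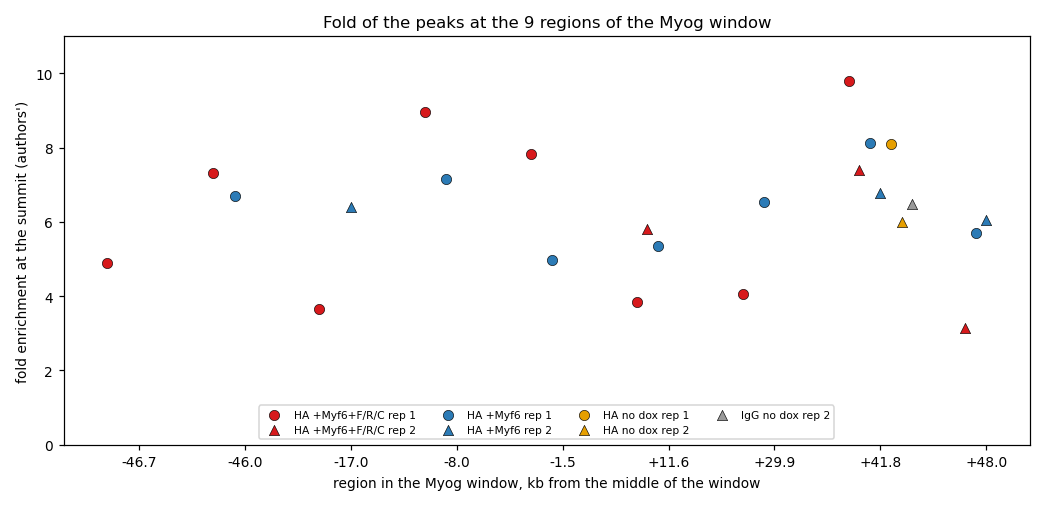
Fold enrichment at the summit (y axis, the authors' ratio) for the HA and IgG peaks of the 9 regions in the Myog window, ordered by distance from its middle (x axis, kb, not to scale); circles are replicate 1, triangles replicate 2, and a list with 2 peaks in a region shows the higher. Replicate 1 fills 6 regions in both induced treatments, and the region at +41.8 kb, with folds from 5.99 to 9.78, alone carries peaks of uninduced HA and IgG libraries.

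In the Myog window the replicate 1 lists of the 2 induced treatments had most regions in common. The replicate 1 lists of +Myf6+F/R/C and +Myf6 shared 6 regions, 75% and 85.7% of their own. Within +Myf6+F/R/C, replicates shared 2 regions (25% of replicate 1 and 66.7% of replicate 2), and within +Myf6 also 2 (28.6% and 66.7%). The replicate 2 lists shared 2 of 3 regions, no more than replicates of a treatment did. All 3 regions of +Myf6+F/R/C replicate 2 were also in +Myf6 replicate 1 (42.9% of its regions), and +Myf6+F/R/C replicate 1 and +Myf6 replicate 2 shared 2 (25% and 66.7%). Of 7 peaks of +Myf6+F/R/C replicate 1 that replicate 2 lacked, 6 still met the call rule of replicate 2 when pileup and background were scaled to its depth. For +Myf6 it was 5 of 5. The library names give replicate 1 of both induced treatments one prefix and replicate 2 another, whose meaning is not stated, and its part in these shared calls was not tested. The same shares over all regions of the genome were not computed, so these few shared regions are no result about this locus.

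Other Myog regions were seen in 1 or 2 lists. A region at 134248535 to 134249174 held 2 peaks in +Myf6+F/R/C replicate 1, with folds of 4.07 and 3.99, and 1 in +Myf6 replicate 1, with a fold of 6.53. A region at 134201884 to 134202150 had folds of 3.66 in +Myf6+F/R/C replicate 1 and 6.40 in +Myf6 replicate 2, with summits 203 bp apart. The last, at 134172205 to 134172368, had a peak in +Myf6+F/R/C replicate 1 alone (fold 4.91). Over all 22 induced HA peaks of the window the fold ran from 3.13 to 9.78 with a median of 6.22. The median folds of the whole induced HA lists were 5.07 to 5.26. The protein-coding genes beside Myog are Adora1, an adenosine receptor gene, and Ppfia4, a liprin gene, with Mybph, a myosin-binding protein of muscle, next to Adora1. Since the annotation at hand is on another build, it was used for names and order only, and no peak in the window was assigned to a gene start, exon or intron.

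**Figure D4:**
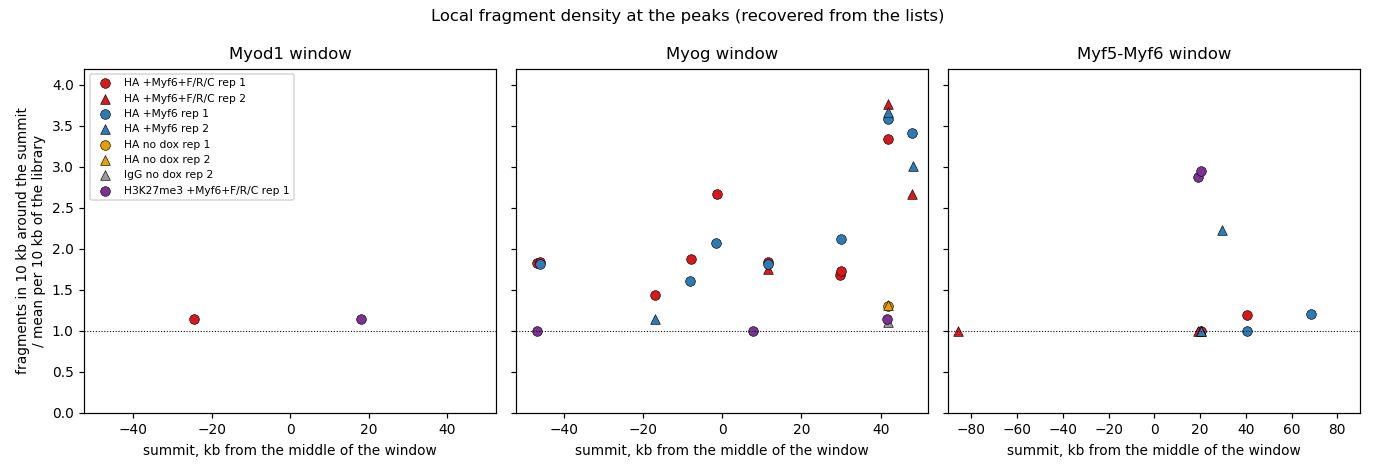
Number of fragments in the 10 kb around each summit divided by the mean per 10 kb of the library (y axis; the dotted line is the mean, below which no value can be recovered), against the distance of the summit from the middle of the window (x axis, kb). In the Myog window the induced HA libraries reach 3.34 to 3.76 at +41.8 kb, against 1.11 to 1.31 in the control libraries with a peak there, and in the Myf5-Myf6 window the H3K27me3 library reaches 2.87 and 2.95.

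At Myf5 and Myf6 no induced HA peak had a pileup above the median of its list, and 1 region was in more than 2 induced lists. The 9 induced HA peaks had folds from 4.16 to 6.32 with a median of 4.94, against medians of 5.07 to 5.26 in the whole lists. Their pileups ran from 6 to 13 fragments. No uninduced HA list and no IgG list had a peak in this window. Of the 9 peaks, 7 would have met the call rule of HA replicate 1 without doxycycline when scaled to its depth and 5 that of replicate 2, but at most 1 would have met that of any IgG library. 

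The region with most lists lay on the Myf6 gene itself, at 107330085 to 107330568. Both +Myf6+F/R/C libraries had a peak there, with folds of 4.96 and 5.28 and pileups of 9 and 8 fragments. In +Myf6 cells replicate 2 had one, with a fold of 4.69 and 6 fragments, and replicate 1 had none. A second region nearby, at 107329148 to 107329319, had a peak in +Myf6+F/R/C replicate 2 (fold 5.87, 9 fragments). Both fall in the interval of about 107328700 to 107330600 that holds the Myf6 exons. The cells carry a lentiviral Myf6 cDNA, whose fragments align to the same exons, so fragments of the provirus and of the endogenous gene cannot be told apart there.

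In the larger exon region the upper ends of the peaks lay closer together than the lower ends. The upper ends of the 3 HA peaks there fell at 107330558, 107330568 and 107330561, and that of the H3K27me3 peak at 107330616, near the upper end of the interval. Their lower ends fell at 107330085, 107330387 and 107330344, and at 107330025 for H3K27me3. In the smaller region the upper ends were 107329319 for HA and 107329458 for H3K27me3. Local density at the 4 HA peaks was not above the mean of the library (1.0, the lowest value that can be recovered, since the caller took the higher of the local and the genome-wide background), and at the H3K27me3 peaks it was 2.87 and 2.95 times the mean. The provirus is present with and without doxycycline, but its promoter is active with it. At the depth of the 2 uninduced HA lists, 3 of the 4 HA exon peaks would have met the call rule in each, and neither list had a peak. This scaling leaves out counting error, and the source of the exon peaks was not tested. Of the 6 IgG lists, 1 of the 4 met the call rule at the depth of replicate 2 without doxycycline and none at the depths of the other 5. Without the exon interval the +Myf6+F/R/C site count of this window was 0, and induced HA libraries averaged 1.25 more peaks than IgG libraries (exact permutation p = 0.0286, n = 4 each). This filter was chosen after seeing the data. In the whole window the difference was 0 with pileups scaled to the lowest IgG depth, so the p-value cannot separate binding from depth.

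**Figure D5:**
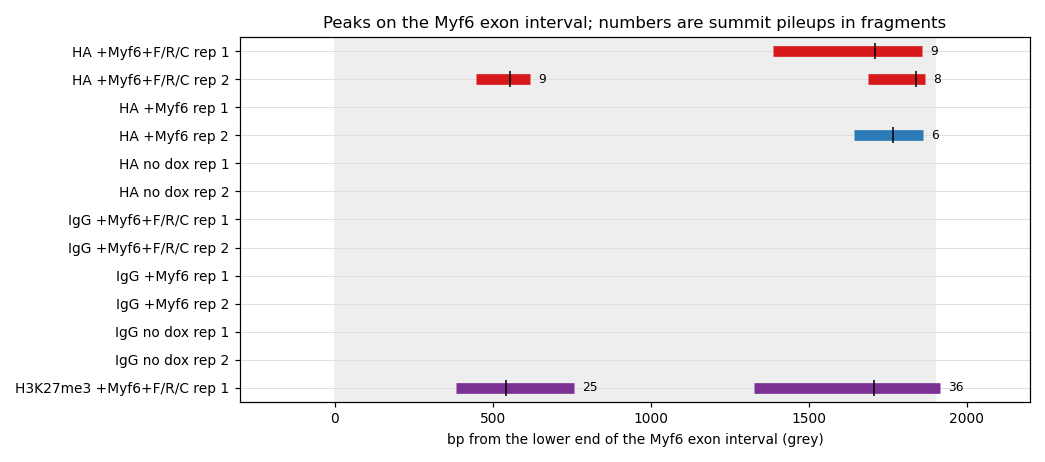
Peaks on the interval of the Myf6 exons (grey): the x axis is the distance in bp from its lower end, each row is a library, bars are the called intervals, ticks their summits, and the numbers their summit pileups in fragments. HA peaks of induced cells, with 6 to 9 fragments, lie within or against the H3K27me3 peaks, with 25 and 36 fragments, and the uninduced HA and IgG rows are empty.

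Away from the exons, 4 regions were seen in the Myf5-Myf6 window. The one at 107350573 to 107350969 had a peak in replicate 1 of both treatments, with folds of 6.32 in +Myf6+F/R/C and 4.16 in +Myf6 cells and pileups of 13 and 6 fragments. The other 3 were each in 1 list: 107223861 to 107224159 in +Myf6+F/R/C replicate 2 (fold 4.70), 107339385 to 107339710 in +Myf6 replicate 2 (fold 4.77) and 107378512 to 107378713 in +Myf6 replicate 1 (fold 4.94). Scaled to the depths of the induced lists that lacked them, all 4 met the call rule, in part narrowly. The peak of +Myf6 replicate 1 at 107350573 came to 4.32 fragments at the depth of +Myf6 replicate 2, where the smallest pileup called at the mean background was 4. Neighbouring genes by order are Lin7a beside Myf5 and Ptprq, which encodes a receptor-type phosphatase, beside Myf6.

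At Myod1, the sole HA peak was in a single library. It lay at 46002680 to 46002938 in +Myf6+F/R/C replicate 1, 24.7 kb below the middle of the window, with a fold of 5.08, 10 fragments and a −log10 q of 4.48, about the median of its list (median fold 5.08). Scaled to the depth of the other 3 induced lists it would have met the call rule in each, and at the depth of any of the 8 control lists in none. In the libraries without a peak in the window, the stretch free of HA peaks reached well beyond it. It measured 484.1 kb in +Myf6+F/R/C replicate 2, and 501.3 and 517.0 kb in +Myf6 replicates 1 and 2. Of the 25297 tiles of 105 kb, 8900 held no peak in any induced HA list. How often stretches of about this length lack a peak was not computed, so these lengths are no result about the locus. The deepest library, +Myf6+F/R/C replicate 1, had a further peak 18.5 kb above the window. The neighbours of Myod1 are Otog and Kcnc1, a gene of the inner ear and a potassium channel gene.

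H3K27me3 peaks were present in each window, in the single library of +Myf6+F/R/C cells. That library is labelled replicate 1, but its name has the prefix of the replicate 2 libraries, so which HA library shares its nuclei is unclear. The Myf5-Myf6 window held 2, with folds of 7.27 and 10.2 and pileups of 25 and 36 fragments, both on the Myf6 exon interval (107329085 to 107329458 and 107330025 to 107330616). The higher ranked 1428 of 32981 in its list. Myog had 3 weaker ones, with folds of 4.22, 5.80 and 5.44 and pileups of 7, 10 and 10 fragments. The one 7.9 kb above the middle of that window (134226519 to 134227170) met no HA region, and the others lay on the region at 134172205 and on the strongest HA region. Myod1 had 1, at 46045510 to 46046365, 18.1 kb above the middle and 856 bp wide, with a fold of 7.91 and 15 fragments, and no HA peak met it. In all, 4 of the 16 regions in the windows met an H3K27me3 peak, of which 1 was a site. Over all 71864 regions 26.1% met one, so the count is near the background. A tile of the same length held an H3K27me3 peak in 46.6% of cases for Myod1, 46.5% for Myog and 56.7% for Myf5-Myf6, so the presence of the mark in a window is near what its length gives. The peaks covered 856 bp, 1179 bp and 966 bp of the 3 windows. The median H3K27me3 peak had 18 fragments, more than those at Myod1 and Myog and fewer than those on Myf6. Where a mark lies on the Myf6 exons, provirus and endogenous gene cannot be told apart for this library either.

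The compounds were set against Myf6 alone in each window. At Myog, +Myf6+F/R/C libraries had 6.0 ± 4.24 HA peaks and +Myf6 libraries 5.0 ± 2.83 (SD, n = 2 each; exact permutation p = 1.0). At Myf5-Myf6 the means were 2.5 ± 0.707 and 2.0 ± 0 (exact permutation p = 1.0, n = 2 each), and at Myod1 0.5 ± 0.707 and 0 ± 0 (exact permutation p = 1.0, n = 2 each). All 3 differences were within the spread between replicates. The order at Myog turned round in 4 alternatives, among them depth (-0.5 peaks with pileups scaled to the lowest of the 4 depths), a −log10 q of at least 5 (-1.0), and leaving out +Myf6+F/R/C replicate 1 (-2.0) or +Myf6 replicate 2 (-1.0). At Myf5-Myf6 it turned to -0.5 without the exon peaks. Both +Myf6+F/R/C lists exceeded both +Myf6 lists in 6.51% of tiles of the Myog length, 8.74% of the Myf5-Myf6 length and 6.78% of the Myod1 length, and did so in none of the 3 windows.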

How the data were processed

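CUT&RUN peaks of 13 libraries were used as deposited, 1 narrow peak list per library. The tools named are MACS2, deepTools and DiffBind, with the build GRCm39, per the submitters' processing notes. The aligner and all versions: not given in the sources used here. Drosophila spike-in nuclei were added, per the labels' protocols, and no spike-in scaling was applied here. The deposited columns used were the fold (a ratio of summit to local background), the −log10 of its p-value and q-value, and the position of the summit. A display score, deposited by the authors, was not used. The lowest −log10 q was 1.30 to 1.46.

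From these, whole summit pileups and expected pileups were recovered (fold with 1 added to both, Poisson tail) to within 0.002 of the deposited −log10 p for at least 99.9% of peaks in every list and for all 41 peaks here. Expected pileups gave fragments per 10 kb, taking the narrowest peak of a list as its fragment length, and the lowest gave the depth. The recovery was tested on simulated data. Only chromosomes 1 to 19, X and Y were used. Regions, sites and tiles are defined where they appear; tiles run end to end along each chromosome. In scaling to another depth, pileup and background were multiplied by the ratio of depths, the pileup rounded, and the weakest −log10 p in the receiving list set as the call rule. Counts were compared with exact permutation tests, 9 in all, unadjusted for their number (Python 3.11.15, scipy 1.17.1). Same-numbered HA and IgG libraries are paired by the labels' protocols.

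By a rule set with the design, the text names regions in at least 3 induced lists, regions on exons of the 4 genes and all H3K27me3 peaks, and gives in full the 5 of best mean rank by fold. Only 4 regions met the count of lists, so the other regions were named after their values were seen. Distances from gene starts, sequences around summits and a list of other muscle genes, also set there, were not analysed here, as no GRCm39 annotation or genome was used. The windows, members and lists were chosen with earlier results of these data known. Alternatives were a stricter q, merged regions, other control filters, closer summits, left-out libraries, a replicate block and scaled depth.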

Additional observations from a re-analysis of the deposited data

How the results depend on the processing

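Peak lists of 2 libraries per group limit every comparison. Without any 1 library the HA minus IgG difference was 4.333 to 6.333 peaks at Myog and 2.0 to 2.333 at Myf5-Myf6, where the exact permutation p of 3 against 4 is 0.0571, the smallest possible. With the replicate block the differences were 5.5 and 2.25 (exact sign flips, p = 0.125, 4 pairs). At Myf5-Myf6 the difference was 0.5 at −log10 q of at least 5 (exact permutation p = 0.429) and 0.0 at the lowest depth (p = 1.0), so that call rests mostly on peaks with a −log10 q below 5. At Myog it passed at −log10 q of at least 5 (3.5), with merged regions (5.25) and scaled to the lowest depth (1.25), which keeps fewer fragments by construction. Most of the Myog peaks left at that depth lay in the region with control peaks. Outside it only +Myf6+F/R/C replicate 1 kept a peak, so the scaled pass rests on that region.

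The difference +Myf6+F/R/C minus +Myf6 at Myog was -1.0 at −log10 q of at least 5 and -0.5 scaled, and without single libraries ran from -2.0 to 4.0; at Myf5-Myf6 it was -0.5 without the exon interval. The cause was not tested. The replicate block gave 1.0 and 0.5 there and changed no other call. Numbers outside the HA and IgG pairs share no stated source.

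Sites at Myog were 2 of each treatment without the filter on control peaks. At −log10 q of at least 5 there were 0 +Myf6+F/R/C sites at Myog and 0 at Myf5-Myf6, and without the exon interval 0 at Myf5-Myf6. In the central 0.5 of the window, +Myf6 sites at Myog were 0. With 1 replicate alone, +Myf6 sites were 2 to 6 at Myog and 2 to 2 at Myf5-Myf6, and +Myf6+F/R/C sites were 2 to 7 at Myog, 2 to 3 at Myf5-Myf6 and 0 to 1 at Myod1. The inner window, the exon filter, the filter on control regions and the sums without 1 induced list were chosen after seeing the data. Windows of 20 kb around gene starts were not run, as no gene starts on GRCm39 were used.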

Other observations

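Just outside the Myf5-Myf6 window, 2 regions were called in each of the 4 induced HA lists, with no control peak and no H3K27me3 peak, whereas no region inside it was called in all 4. They were picked after their values were seen, within 60 kb of a window. Both are sites of both treatments by the definition above, as 10.7% of all 71864 regions were. Such a site was in 32.4% of tiles of the Myf5-Myf6 length, so having them nearby is no result about this locus. The region at 107176860 to 107177389 on chromosome 10, 42.6 kb below the window, had folds of 7.35 and 5.68 in +Myf6+F/R/C cells (replicates 1 and 2) and 4.14 and 6.31 in +Myf6 cells, with pileups of 23 and 16, and of 7 and 11 fragments. The region at 107451228 to 107451877, 51.2 kb above it, had folds of 5.40 and 4.79 in +Myf6+F/R/C cells and 5.80 and 8.71 in +Myf6 cells, with pileups of 13 and 8, and of 9 and 12 fragments. At the region below the window the folds of the 2 treatments overlapped and the pileups, which are not corrected for depth, did not. At the region above it the pileups overlapped and the folds did not. No difference between treatments was tested at either. No such region lay within 60 kb of the Myod1 or Myog window, and most tiles of those lengths held no site of both treatments (22.3% and 22.2% held one).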
